A study of Mus musculus with 77 samples.

Results

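The 8 genes described here, Mbp, Pmp22, Mag, Pmp2, Pllp, Drp2, Mal and Ncmap, encode proteins of the myelin sheath. They were chosen by name, as symbols in the gene column of the deposited tables. No value entered that rule, but earlier results of these data were known when the genes were chosen. The tables list 18104 genes in at least 1 table and 7768 in all 6. Of the 8 genes, 6 are listed in all 6 tables, and Mag and Pmp2 are absent from the Isl1 pull-down table of the injury series. The libraries come from mouse dorsal root ganglia (DRG) carrying the RiboTag allele, with which cells that express Cre put an HA tag on the ribosomal protein Rpl22 and their ribosomes can be immunoprecipitated together with the bound RNA. For naive (uninjured) ganglia of 5 Cre lines there are libraries of that immunoprecipitate (IP, also called pull-down here), of the starting lysate (input) and of what was not bound (supernatant). Ganglia of the Isl1 line (IP and input) and the Dhh line (IP) were also taken 4, 12 and 24 h after sciatic nerve (SN) injury, with naive ganglia beside them that served all times. According to the paper, lumbar ganglia were used for this injury series. The labels name neither a sham operation nor controls for the hour of collection.

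By the labels and the study's methods the mice were males of 8 to 12 weeks, all carrying the RiboTag allele. Adv-Cre mice, with Cre expressed from the advillin gene in sensory neurons, carried 1 RiboTag copy and were C57BL/6. PGK-Cre mice, with Cre under a promoter active in all cells, were C57BL/6 and homozygous for RiboTag. Isl1-Cre mice (sensory neurons), Runx3-Cre mice (proprioceptive neurons) and Dhh-Cre mice (the ganglion's glia) were ICR and homozygous for RiboTag. The driver's activity during development sets which cells are tagged, so a pull-down need not match the adult expression of the driver gene. Strain and line cannot be told apart for a single line, and the labels do not say whether replicates are single mice. The p-values therefore measure the spread between libraries within groups, pooled over all groups in a model and not over the compared ones alone. A group held 3 libraries, except for 2 in the naive Dhh IP and 2 in the 24 h Dhh IP. The Isl1 input groups at 4, 12 and 24 h also held 2 each.

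Myelin in the ganglion and the peripheral nerve is made by Schwann cells, each of which wraps a segment of an axon and squeezes most of the cytoplasm out of the wraps. Mbp (myelin basic protein) lines the cytoplasmic faces of compact myelin and holds them together, Pmp22 is a tetraspan membrane protein of compact myelin, and extra or missing copies of its gene cause inherited neuropathies in people. Pmp2 is a fatty acid-binding protein of the myelin cytoplasm, and Pllp (plasmolipin) and Mal are tetraspan proteins of lipid rafts that take part in sorting membrane to the sheath. Mag (myelin-associated glycoprotein) sits on the innermost wrap facing the axon. Drp2 (dystrophin-related protein 2) joins periaxin and dystroglycan at the outer surface of the Schwann cell, and Ncmap is a membrane protein of noncompact myelin. Neurons do not form myelin, although the Mbp locus also gives the golli transcripts in neurons and immune cells, which counts per gene do not tell apart.

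In the mm10 build (GENCODE M21, coordinates counted from 1) Mbp lies on the plus strand of chromosome 18 from 82475146 to 82585637, and Drp2 on the plus strand of chromosome X from 134404551 to 134456573. Pmp22 lies on the plus strand of chromosome 11 from 63128982 to 63159547, Mag on the minus strand of chromosome 7 from 30899176 to 30914873, and Ncmap on the minus strand of chromosome 4 from 135369576 to 135398227. Pmp2 lies on the minus strand of chromosome 3 from 10179851 to 10183929, Pllp on the minus strand of chromosome 8 from 94674894 to 94696278, and Mal on the minus strand of chromosome 2 from 127633226 to 127656695. All values are counts over the exons of a gene as RefSeq draws them. The predicted gene Gm37389 overlaps Pmp2 on its strand and Gm45767 overlaps Pllp on the other, and the sources used here do not say whether counting was strand-specific.

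Library totals ran from 29710143 to 54088821 counts, and levels are given as CPM (the count divided by the library total, times 1e+06). Dhh, the driver gene, stood at 438 and 544 CPM in the naive Dhh IP and at no more than 61.9 CPM in any other naive IP library. The summed CPM of 18 sensory neuron markers was 1494 and 2219 in the Dhh IP against 34699 or more in each library of the other naive IPs, while 8 other markers of myelinating Schwann cells summed to 6727 and 6634 in the Dhh IP, 522 to 790 in that of PGK, 124 to 177 (Adv), 94.5 to 111 (Isl1) and 47.8 to 63.9 (Runx3). A ninth listed marker, S100b, was left out of these sums after its values were seen: it had 1373 and 989 CPM in the Dhh IP and 1954 to 2482 CPM in that of Runx3, and with it the sums were 7623 to 8100 (Dhh), 1503 to 1741 (PGK), 1265 to 1432 (Adv), 1114 to 1567 (Isl1) and 2018 to 2537 (Runx3). Satellite glia, which wrap the neuron bodies and make no myelin, were also in that pull-down, with 8 markers at 11962 and 12969 CPM. Markers of other cells stood apart in some neuronal libraries. Replicate 2 of the naive Adv IP had 709 CPM of satellite glia markers (432 and 412 in the others) and 143 CPM of fibroblast markers (45.5 and 47.1). Replicate 3 of the 12 h Isl1 IP had 470.0 CPM of satellite glia markers (357 and 348 in the others) and 143 CPM of fibroblast markers (39.1 and 36.3). Replicate 3 of the naive Runx3 IP had 309 CPM of mast cell and neutrophil markers (117 and 93.1 in the others), and replicate 2 of the naive Isl1 IP had 73.8 CPM of mural cell markers (25.1 and 34.2). Where leaving out 1 of the first 3 libraries changed a call or moved a value given for the 8 genes by over 1.5 times, the value without it stands beside the result.

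The transcription factors Sox10 and Egr2 switch on many myelin genes in Schwann cells, and Sox proteins bind around the letters ACAAAG while Egr proteins bind GCGTGGG. RefSeq promoter windows (build GRCm38.p6, the 250 bases before a transcript start) were found for 5 of the 8 genes, 11 windows in all, and both motifs were searched in both strands. No window holds both motifs, and some windows of Mag and of Pmp22 overlap each other. Windows of 3 genes are printed here because they belong to the genes on which the results turn. Mag was among the lowest of the 8 genes in the neuronal pull-downs and Pmp22 the highest there. Ncmap rose in the Dhh pull-down 12 h after injury. Of the 11 windows, that of Mal alone was matched, within 10 bases, to the start of the transcript named for the gene in the deposited data. The printed windows were not matched to such a start, and for Ncmap no RefSeq transcript is named there. The Mag window precedes a start at 30914863 on the minus strand of chromosome 7 and runs chr7:30914864-30915113. That of Ncmap precedes an inner start at 135385672 on the minus strand of chromosome 4 and runs chr4:135385673-135385922, and it was chosen after its match was seen. For Pmp22 the window precedes the start at 63128982 on the plus strand of chromosome 11 and runs chr11:63128732-63128981. Capitals mark a motif match on either strand.
Mag: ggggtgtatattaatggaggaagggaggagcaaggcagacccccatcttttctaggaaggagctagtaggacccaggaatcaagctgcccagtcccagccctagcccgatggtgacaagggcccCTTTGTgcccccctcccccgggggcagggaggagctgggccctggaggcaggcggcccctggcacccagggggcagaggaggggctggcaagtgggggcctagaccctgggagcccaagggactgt
Ncmap: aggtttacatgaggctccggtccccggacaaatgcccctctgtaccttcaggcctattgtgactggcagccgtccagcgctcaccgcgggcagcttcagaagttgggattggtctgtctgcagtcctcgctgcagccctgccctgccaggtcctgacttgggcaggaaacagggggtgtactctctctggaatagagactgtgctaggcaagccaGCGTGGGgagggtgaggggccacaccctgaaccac
Pmp22: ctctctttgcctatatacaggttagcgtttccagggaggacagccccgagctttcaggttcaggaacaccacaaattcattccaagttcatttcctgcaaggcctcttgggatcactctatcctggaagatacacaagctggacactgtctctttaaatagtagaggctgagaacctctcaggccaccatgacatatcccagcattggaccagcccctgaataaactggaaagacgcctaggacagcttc
The Mag window holds 1 match of ACAAAG, written in its reverse complement, and the Ncmap window 1 match of GCGTGGG. Neither motif is in the Pmp22 window, nor in any other window of Pmp22, Mal or Pllp. A Mag window that overlaps the printed one holds the same match. The Mag window before the start at 30914321 and the Ncmap window before that at 135398227 hold none. Over 32851 windows of this length, 16.5% held ACAAAG and 4.30% held GCGTGGG. A match is a description of the letters and not a site shown to be bound.

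In naive ganglia each of the 8 genes was most abundant in the glial (Dhh) pull-down, and lower in the neuronal pull-downs. For 7 of them the pull-down of all cells (PGK) came next, above every neuronal library, while for Pmp22 it overlapped that of Isl1. Mbp stood at 11651 and 9693 CPM in the Dhh IP, at 711, 690 and 672 CPM in that of PGK, at 105, 197 and 86.1 CPM in that of Adv, at 70.2, 98.3 and 117 CPM in that of Isl1 and at 65.9, 74.9 and 56.1 CPM in the Runx3 IP. The Dhh libraries were above all others and the PGK libraries above all neuronal ones, while the Adv and Isl1 libraries overlapped. Together the 8 genes took 2.03% ± 0.0368 (SD, n = 2) of all counts in the Dhh IP, 0.195% ± 0.0208 (n = 3) in the PGK IP, 0.0935% ± 0.00923 for Isl1, 0.0817% ± 0.00247 for Adv and 0.0230% ± 0.000855 for Runx3. In bulk libraries fewer cells of a type and less RNA per cell cannot be told apart.

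**Figure D1:**
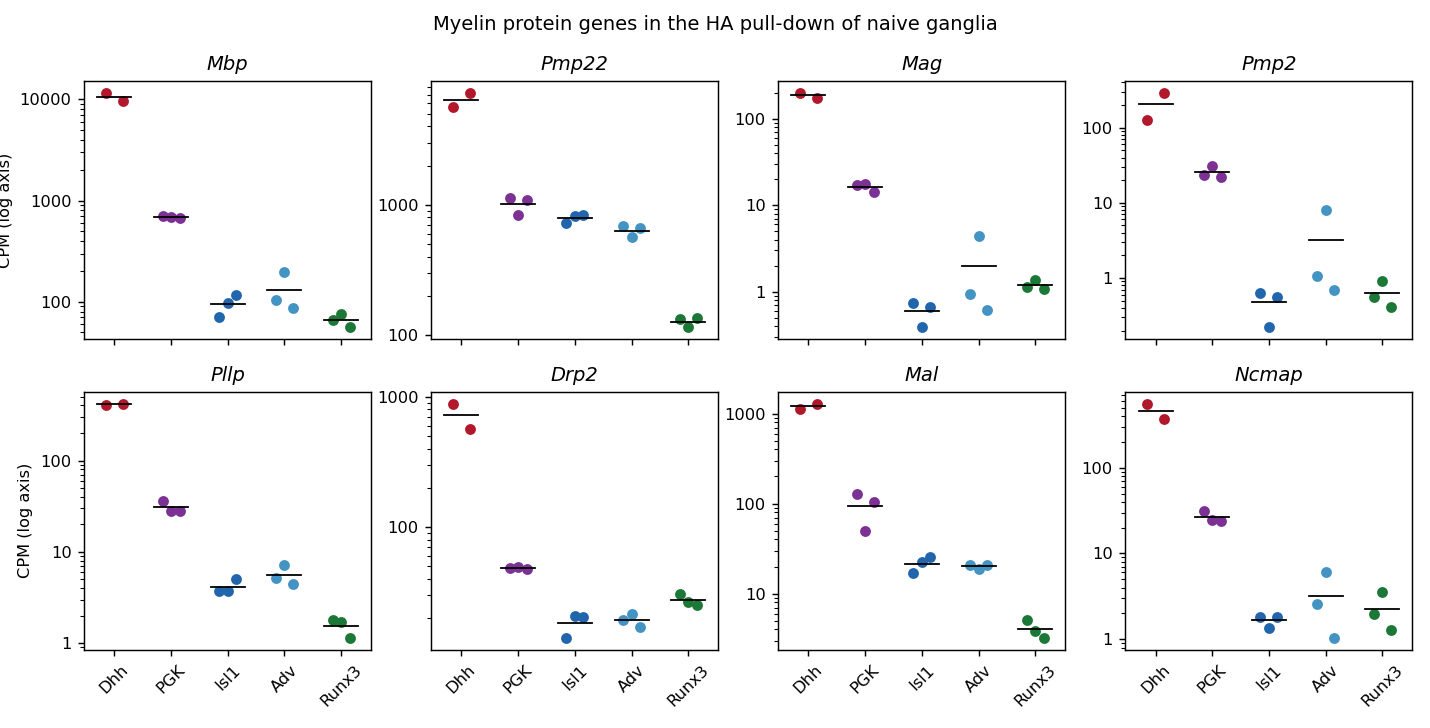
CPM (log axis) of the 8 myelin protein genes in each naive pull-down library, with a panel for each gene, a column for each Cre line, a point for each library and a bar at the group mean. The Dhh libraries lie above all others in every panel, and of the neuronal points those of Pmp22 in the Isl1 and Adv lines come closest to them, at 562 to 836 CPM against 5606 and 7236.

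Pmp22 was the exception in size. It stood at 5606 and 7236 CPM in the Dhh IP, at 1131, 830 and 1089 CPM in the PGK IP, at 722, 819 and 836 CPM in the Isl1 IP, at 682, 562 and 658 CPM in the Adv IP and at 132, 115 and 134 CPM in the Runx3 IP. The Isl1 libraries thus overlapped those of PGK, the Adv libraries lay just below both, and those of Runx3 were below every other library. Mag, by contrast, had 201 and 174 CPM in the Dhh IP and 17.3, 17.6 and 14.3 CPM in the PGK IP. In the neuronal pull-downs Mag had 0.732, 0.388 and 0.661 CPM (Isl1), 0.937, 4.35 and 0.621 CPM (Adv) and 1.15, 1.35 and 1.08 CPM (Runx3), so that all but Adv replicate 2 were at or below 1.35 CPM.

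Pmp2 had 127 and 291 CPM in the Dhh IP, 21.9 to 31.0 CPM in the PGK IP and 0.222 to 1.07 CPM in the neuronal pull-downs other than Adv replicate 2, where it had 7.98 CPM. Ncmap had 561 and 367 CPM in the Dhh IP, 24.2 to 30.9 CPM in the PGK IP and 1.03 to 6.03 CPM in the neuronal libraries, again highest in Adv replicate 2. Pllp had 403 and 420 CPM in the Dhh IP, 28.2 to 36.5 CPM in the PGK IP and 1.14 to 7.21 CPM in the neuronal libraries. The neuronal ranges of these genes are a small part of their glial levels. Mal, at 1128 and 1293 CPM in the Dhh IP and 49.5 to 127 CPM in the PGK IP, kept 17.1 to 25.3 CPM in the Isl1 and Adv libraries and 3.22 to 5.15 CPM in those of Runx3. Drp2 had 887 and 567 CPM in the Dhh IP and 47.8 to 49.6 CPM in the PGK IP. Its order among the neuronal pull-downs was the reverse. It had 14.2 to 21.6 CPM in the Isl1 and Adv libraries and 25.3 to 30.9 CPM in those of Runx3.

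Per length of transcript, Mbp led in the naive Dhh IP with 4283 FPKM ± 555 (CPM divided by transcript length in kilobases, SD, n = 2), a level that overlapped that of Pmp22 at 3567 ± 641. Mal followed at 436 ± 42.0, Ncmap at 232 ± 68.6, Pllp at 214 ± 6.29, Pmp2 at 148 ± 82.4, Drp2 at 102 ± 31.7 and Mag at 76.9 ± 7.77. Ncmap, Pllp and Pmp2 did not differ beyond their spread, nor did Drp2 and Mag. In all other naive groups, including the input and supernatant, Pmp22 had the highest FPKM of the 8 genes and Mbp the next. In FPKM the ratio of Mbp to Pmp22 was 0.968 and 1.5 in the Dhh IP libraries, 0.446 to 0.600 in the PGK IP, 0.0703 to 0.101 in the Isl1 IP, 0.0945 to 0.254 in the Adv IP (highest in replicate 2) and 0.302 to 0.470 in the Runx3 IP.

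Tested with edgeR over 10521 genes, all 8 genes were higher in the naive Dhh IP than in each of the 4 other pull-downs at a false discovery rate (FDR) under 0.1. These comparisons share the Dhh libraries. Among all genes tested the share called higher was 43.7% against Isl1, 43.6% against Adv, 45.5% against Runx3 and 43.2% against PGK. The log2 differences against the Isl1 IP were 8.97 ± 1.04 (SE) for Pmp2 (edgeR FDR = 6.11e-06), 8.47 ± 0.73 for Mag (3.73e-07), 8.28 ± 0.68 for Ncmap (2.59e-07), 6.98 ± 0.39 for Mbp (9.76e-09) and 3.19 ± 0.14 for Pmp22 (1.76e-09), with Pllp, Mal and Drp2 between 5.47 and 6.80. The median log2 difference of the 8 genes was 6.89 against Isl1, 6.19 against Adv, 7.49 against Runx3 and 3.93 against PGK, beside 0.05, 0.08, 0.18 and 0.11 over all genes tested. Without Adv replicate 2 the median against Adv was 6.74 and all 8 calls stood.

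The PGK IP, which takes ribosomes of all cells, was set against the neuronal pull-downs. All 8 genes were higher in it than in the Adv IP (13.5% of all genes were) and than in the Runx3 IP (35.7%), and 7 were higher than in the Isl1 IP (15.4%). Pmp22 differed from the Isl1 IP by a log2 value of 0.31 ± 0.12 (edgeR FDR = 0.107), and without PGK replicate 2 by 0.38 (edgeR FDR = 0.0795). For Mag the log2 difference from the Isl1 IP was 4.76 ± 0.63 (edgeR FDR = 0.000162). That of Pmp2 from the Adv IP was 2.87 ± 0.78 (edgeR FDR = 0.0276), and without Adv replicate 1 it missed the threshold (2.42, edgeR FDR = 0.104). Without Adv replicate 2 the 8 calls against Adv stood, with Pmp2 at 4.78 and Mag at 4.31.

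Among the neuronal pull-downs the 8 genes did not move together. Against the Isl1 IP, 3 genes were lower in the proprioceptor (Runx3) IP, where 27.3% of all genes were lower, and 1 was higher (28% of all genes). The lower ones were Pmp22 at a log2 difference of -2.47 ± 0.13 (edgeR FDR = 3.19e-08), Mal at -2.22 ± 0.27 (2.88e-05) and Pllp at -1.24 ± 0.24 (0.00104), and Drp2 was higher by 0.77 ± 0.18 (0.00365). Mag, whose Runx3 libraries lay above those of Isl1 without overlap, differed by 1.19 ± 0.63 (edgeR FDR = 0.144), and it was called higher with DESeq2 (1.24, FDR = 0.0578) and with only the compared groups in the edgeR fit (1.19, FDR = 0.0213). Against the Adv IP the same 3 genes were lower (-2.22 ± 0.12, -2.20 ± 0.27 and -1.76 ± 0.24), as were Mbp (-0.89 ± 0.30) and Pmp2 (-2.28 ± 0.87), where 28.9% of all genes were lower. Drp2 was higher by 0.60 ± 0.18 (edgeR FDR = 0.0137), as were 28.3% of all genes. Without Adv replicate 2 the calls of Mbp (-0.39, edgeR FDR = 0.141) and Pmp2 (-0.38, edgeR FDR = 0.611) were lost and Mag became higher in the Runx3 IP (0.74, edgeR FDR = 0.0584). The Pmp2 call was also lost without Runx3 replicate 1 (-2.18, edgeR FDR = 0.120) or 3 (-2.01, edgeR FDR = 0.138). The other 4 calls against Adv were kept without any single library.

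Between the Isl1 and Adv IPs none of the 8 genes, and 0% of all 10521 genes tested, passed the edgeR threshold. At an unadjusted p under 0.05 there were 1254 genes, and DESeq2 called 189, among them Mag. The log2 differences (Isl1 minus Adv) of the 8 genes ran from -2.87 ± 0.89 for Pmp2 to 0.25 ± 0.12 for Pmp22. Without Adv replicate 2 that of Pmp2 was -0.96 and that of Mag -0.45, in place of -1.80, and the median of the 8 genes was -0.11 in place of -0.53.

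The share of the glial level that remained in a neuronal pull-down also differed from gene to gene. In the Isl1 IP the mean CPM of Pmp2 was 0.227% of that in the Dhh IP, Mag 0.317%, Ncmap 0.358% and Mbp 0.892%. Pllp stood at 1.01%, Mal at 1.78%, Drp2 at 2.53% and Pmp22 at 12.3%. The order of the lowest is not firm: the Dhh libraries of Pmp2 stood at 127 and 291 CPM, and without Dhh replicate 3 its percentage was 0.374%, above Mag and Ncmap (0.296% each). In the Runx3 IP Drp2 had the highest percentage, 3.80%, followed by Pmp22 at 1.98%, while the other 6 genes stood at 0.302 to 0.638% (Pmp2 at 0.498% without Dhh replicate 3). In the Adv IP Pmp22 stood at 9.87%, Drp2 at 2.67% and the others at 0.692 to 1.66%. Without Adv replicate 2 Pmp2 went from 1.55 to 0.421%, Mag from 1.05 to 0.416% and Ncmap from 0.692 to 0.388%, and without Dhh replicate 3 Pmp2 stood at 2.56%. The PGK IP held 5.74 to 15.8% of the Dhh level for the 8 genes, with Pmp2 at 12.2% and, without Dhh replicate 3, at 20.0%.

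**Figure D2:**
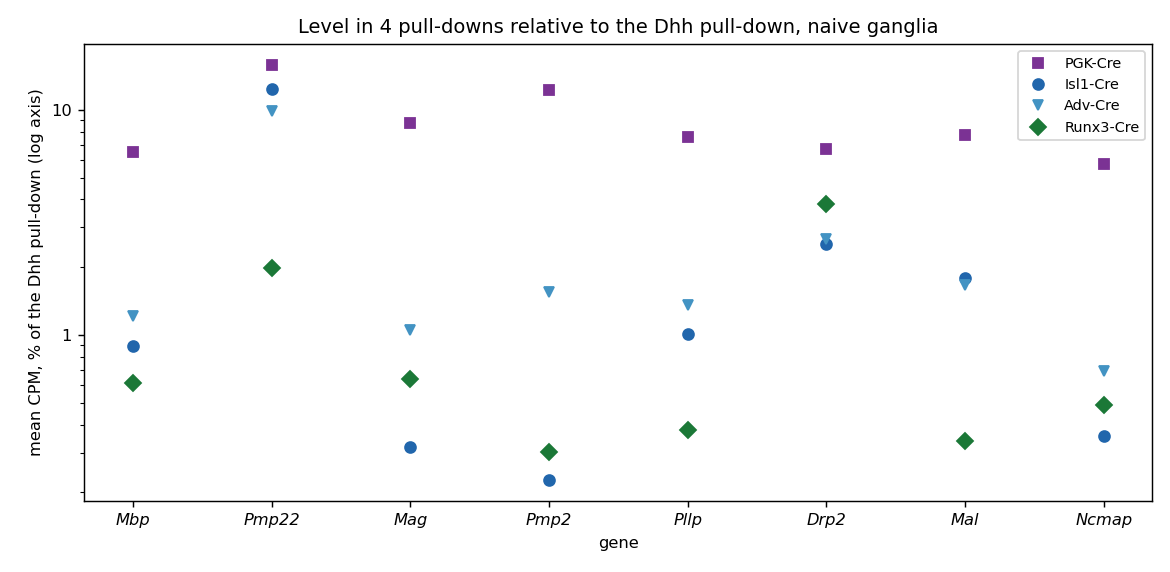
Mean CPM of each gene in 4 naive pull-downs as a percent of its mean in the Dhh pull-down (log axis), with a symbol for each line. In the Isl1 line Pmp22 stands at 12.3% and Pmp2 at 0.227%, while in the PGK line the points lie between 5.74 and 15.8%.

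Against the whole lysate of the same line, the neuronal pull-downs held less and the glial pull-down more of every gene. In input, Mbp had 806 to 1205 CPM in the Adv line, 702 to 992 CPM in the Isl1 line, 579 to 840 CPM in the Runx3 line, 929 to 1327 CPM in the Dhh line and 635 to 834 CPM in the PGK line. The Dhh input libraries lay above all those of Runx3 and PGK, and all other pairs of lines overlapped. All 8 genes were lower in IP than input in the Adv line (25.2% of 10206 genes tested were), in the Isl1 line (19.5%) and in the Runx3 line (37.4%), and all 8 were higher in the Dhh line (44%). The median log2 differences of the 8 genes were -2.88 (Adv), -3.17 (Isl1), -3.57 (Runx3) and 3.31 (Dhh), beside medians over all genes between -0.0045 and 0.0788. Without Adv replicate 2 the Adv median was -3.28, with Mag at -4.50 in place of -3.13, Ncmap at -4.87 in place of -3.99 and Pmp2 at -5.42 in place of -3.48.

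Mag and Ncmap were strongly depleted in all 3 neuronal pull-downs, at log2 differences of -3.13 ± 0.43 to -4.28 ± 0.47 and -3.99 ± 0.47 to -4.62 ± 0.49. Drp2 was depleted least in the Runx3 line, by a log2 difference of -0.76 ± 0.23 (edgeR FDR = 0.0052), and Pmp22 least in the Isl1 line, at -0.90 ± 0.12 (edgeR FDR = 3.1e-06). In the Runx3 line Pmp22 stood at -3.37 ± 0.13 (edgeR FDR = 3.7e-15). Enrichment in the Dhh line ran from 2.04 ± 0.13 for Pmp22 (edgeR FDR = 4.1e-12) to 4.01 ± 0.44 for Mal (edgeR FDR = 2.2e-08).

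In the PGK line 1 of the 8 genes was lower in IP than input, as were 10.3% of all genes. This was Pmp22, at 1131, 830 and 1089 CPM in IP and 1588, 1830 and 1420 CPM in input, with no overlap, a log2 difference of -0.75 ± 0.12 (edgeR FDR = 0.00042). With the replicate number as a block, which pairs the IP and input of a sample in this line, Ncmap was lower too (-0.67, edgeR FDR = 0.0983), and 3640 genes were called in place of 1933.

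**Figure D3:**
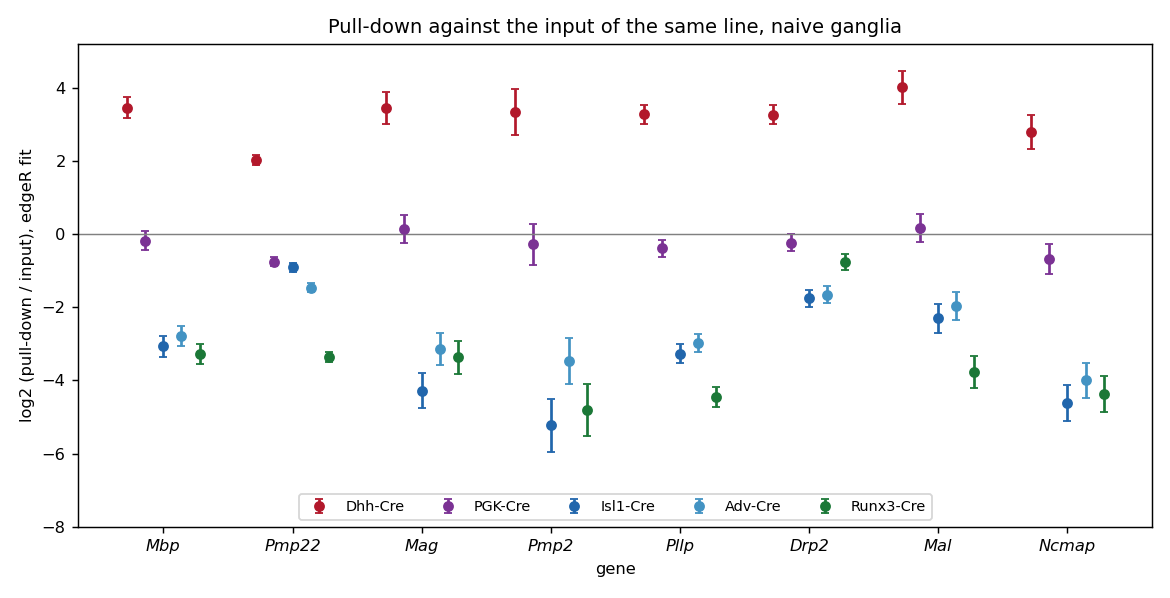
log2 difference of the naive pull-down from the input of the same line for each of the 8 genes (points, with bars of 1 standard error from edgeR), with a symbol for each line. The Dhh points lie between 2.04 and 4.01, the Adv, Isl1 and Runx3 points between -5.23 and -0.76, and the PGK points between -0.75 and 0.18.

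The supernatant shows what the pull-down leaves behind. In the Dhh line 3 of the 8 genes were lower in supernatant than in input, as were 2.51% of 10362 genes tested. Mag had 12.3, 14.0 and 8.43 CPM in supernatant and 20.8, 18.3 and 17.2 CPM in input, and Pmp22 had 1355, 1208 and 1265 CPM against 1775, 1808 and 1579 CPM. Neither gene's libraries overlapped. The log2 differences were -0.76 ± 0.22 for Mag (edgeR FDR = 0.0666), -0.50 ± 0.12 for Pmp22 (edgeR FDR = 0.0345) and -0.62 ± 0.19 for Mbp (edgeR FDR = 0.0905). The call of Pmp22 was lost without supernatant replicate 3 (-0.49, edgeR FDR = 0.119) or input replicate 2 (-0.43, edgeR FDR = 0.168). Mbp was lost without any library other than supernatant replicate 1 (-0.47 to -0.71), and Mag without any other than supernatant replicate 2 (-0.57 to -0.81).

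Supernatant and input of the same number deviated together in the Dhh line, and with the replicate number as a block 6 of the 8 genes were lower, the added ones being Pmp2 (-0.86, edgeR FDR = 6.05e-05), Ncmap (-0.94, edgeR FDR = 0.000132) and Pllp (-0.74, edgeR FDR = 0.00116), and 2130 genes were called in place of 452. In the Isl1 line none of the 8 genes differed (0.454% of all genes did), and with the block 4 were higher in supernatant. These were Mbp (0.39, edgeR FDR = 0.00784), Mag (0.60, edgeR FDR = 0.0124), Drp2 (0.55, edgeR FDR = 0.0320) and Pmp2 (0.28, edgeR FDR = 0.0654), with 1253 genes called in place of 47. None of the 8 differed in the Adv line (0% of all genes), the Runx3 line (0.00965%) or the PGK line (0%, and with the block 4 genes, none of them of the 8). At an unadjusted p under 0.05 there were 475 genes in the Adv line and 222 in the PGK line, and DESeq2 called 18 and 1.

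Other genes of the myelin programme were counted from lists. In the naive Dhh IP against the Isl1 IP, 13 of 16 other structural myelin proteins were higher and 1 lower (median log2 difference 5.03), among them Cnp, an enzyme of noncompact myelin, at 4.63 ± 0.13, and Cadm4, an adhesion molecule of the internode, at 4.49 ± 0.13. All 13 genes of the Drp2, periaxin and dystroglycan complex were higher (median 4.00), as were all 14 tested activators of myelination (median 7.65), for example Tead1, at 4.69 ± 0.26. Of 8 negative regulators of myelination and repair genes 5 were higher and 2 lower, and of 11 genes of myelin lipid synthesis 8 were higher and 3 lower. Of all genes 43.7% were called higher in this comparison and 41.3% lower.

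Over the 15 naive group means, the genes whose log2 CPM followed the mean of the 8 genes most closely by Pearson's r, among the 11071 genes whose mean count reached 50, were Ndrg1 (r = 0.996) and Sorbs3, Nr2f2, Lpar1 and Fhl3 (0.995 each). Mutations in NDRG1 cause a demyelinating neuropathy in people, and Lpar1 is a receptor for lysophosphatidic acid that Schwann cells carry. The order is not firm: by Spearman's rho none of these 5 was among the first 5. The points share libraries and their depth, and the Dhh IP lies far from the rest, so that these r values rest largely on it. Among the 8 genes, Mbp (r = 0.998) and Pllp (0.996) followed the mean of the other members most closely and Pmp22 (0.900) and Drp2 (0.911) least.

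The inputs allow a comparison of the C57BL/6 lines (Adv and PGK, 6 libraries) with the ICR lines (Isl1, Runx3 and Dhh, 9 libraries). Strain is nested in line, so the standard errors measure the spread within lines and not that between lines of a strain. The Adv line also carried 1 RiboTag copy where the others were homozygous. None of the 8 genes passed the threshold, and 0.0275% of 10928 genes did. Pmp2 had the largest difference, a log2 value of 0.74 ± 0.19 (edgeR FDR = 0.86), with 23.1 to 45.8 CPM in the C57BL/6 lines and 13.4 to 33.2 CPM in the ICR lines, ranges that overlap. DESeq2 called it (FDR = 0.0736), and for all genes there were 469 at an unadjusted p under 0.05 with edgeR.

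The injury series had naive Dhh libraries of its own, and the levels of the 8 genes there were not those of the naive panel. The labels call the cell type of the injury-series Dhh samples sensory neurons and that of the naive panel glia, and samples were grouped here by title and genotype. In the 11 injury-series libraries the 18 sensory neuron markers summed to 1349.7 to 1730.0 CPM and the 8 satellite glia markers to 6319 to 12999 CPM. Both ranges overlap those of the naive Dhh IP, although the satellite glia sums of the naive series libraries alone, given below, lay under it. Mag had 26.5, 33.2 and 24.7 CPM in place of 201 and 174, and Mbp 2786, 3086 and 3202 CPM in place of 11651 and 9693. Pmp22 lay the other way, at 11725, 14664 and 13522 CPM in place of 5606 and 7236. The paper names lumbar ganglia for the injury series and does not say for every line of the naive panel which ganglia were taken. The tables were made separately and list different genes, so the difference between the experiments was not tested. In FPKM the naive series libraries had Pmp22 first at 7391 ± 823 (SD, n = 3) and Mbp next at 1214 ± 86.1, then Mal at 648 ± 12.0, Drp2 at 174 ± 12.5 and Ncmap at 116 ± 13.8, with Pllp (64.4 ± 6.38) and Pmp2 (61.9 ± 13.9) overlapping and Mag last at 11.6 ± 1.84.

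In the Dhh IP after SN injury Ncmap and Pmp22 were called higher at 12 h, where 17.3% of all genes were higher and 15.6% lower. At 24 h Pmp2 was called lower, as were 1.45% of all genes, and Drp2 higher, as were 1.23%. Mbp, Mag, Mal and Pllp were called at no time. Pmp2, the fatty acid carrier, had 77.5, 74.1 and 110 CPM in naive ganglia, 94.0, 88.3 and 169 CPM at 4 h, 35.4, 50.8 and 66.3 CPM at 12 h and 11.9 and 23.6 CPM at 24 h. All libraries at 12 and 24 h were below all naive ones, and those at 4 h overlapped them. Its log2 change at 24 h was -2.32 ± 0.37 (edgeR FDR = 0.00472), a call that held without any single library. At 12 h it was -0.58 ± 0.30 (edgeR FDR = 0.174), and -0.86 (edgeR FDR = 0.0435) without the 12 h replicate 3.

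Ncmap had 252, 242 and 200 CPM in naive ganglia, 297, 276 and 294 CPM at 4 h, 339, 340 and 353 CPM at 12 h and 315 and 270 CPM at 24 h. Every library after injury was above every naive one. The log2 change passed the threshold at 12 h, at 0.76 ± 0.12 (edgeR FDR = 0.000376), a call that no single library decided, and was 0.35 ± 0.12 at 4 h (edgeR FDR = 0.25) and 0.32 ± 0.13 at 24 h (edgeR FDR = 0.343). Drp2 had 1147, 1322 and 1262 CPM in naive ganglia and 2015 and 1711 CPM at 24 h, with no overlap, a log2 change of 0.56 ± 0.14 (edgeR FDR = 0.0539). That call was lost without the 24 h replicate 1 (0.43, edgeR FDR = 0.377) and without naive replicate 1 (0.50, edgeR FDR = 0.205) or 3 (0.57, edgeR FDR = 0.157).

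Pmp22 had 11725, 14664 and 13522 CPM in naive ganglia and 13435, 14600 and 17420 CPM at 12 h, which overlap, and its log2 change was 0.38 ± 0.14 (edgeR FDR = 0.0672). It fell short of the threshold without naive replicate 1 (0.29, edgeR FDR = 0.235) or 3 (0.39, edgeR FDR = 0.130) or the 12 h replicate 3 (0.23, edgeR FDR = 0.177). The edgeR test scales libraries by TMM, a trimmed mean of log ratios between libraries, and CPM on that scale divided by plain CPM was 1.10 in the 12 h libraries and 0.963 in the naive ones, so fitted changes at 12 h lie above those of CPM. With the size factors of DESeq2 in the same model both 12 h calls were kept.

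In counts, none of the 8 genes was called at 4 h (1.15% of 11000 genes tested were), although with only the compared groups in the fit Drp2 (0.34, edgeR FDR = 0.0643) and Ncmap (0.35, edgeR FDR = 0.0957) were. At 12 h 2 rose, where 17.3% of all genes rose, and at 24 h 1 fell (1.45% of all genes) and 1 rose (1.23%). The median log2 change of the 8 genes was 0.29 at 4 h, 0.26 at 12 h and -0.27 at 24 h, beside 0.0030, -0.0162 and -0.0047 over all genes. These comparisons share the naive libraries. Mbp ranged from 2396 to 4542 CPM over the 11 libraries with a log2 change of no more than 0.33 ± 0.17 in either direction at any time, and Mag from 22.7 to 35.5 CPM. Without the 12 h replicate 1 Mbp (0.44, edgeR FDR = 0.0572) and Mal (0.33, edgeR FDR = 0.0288) were called higher at 12 h. Mal at 1374 and 1326 CPM and Pllp at 86.5 and 85.8 CPM were both lower in the 24 h libraries than in any naive one (1761 to 1822 and 113 to 137 CPM), at log2 changes of -0.44 ± 0.13 (edgeR FDR = 0.111) and -0.55 ± 0.21 (edgeR FDR = 0.265). With only the compared groups in the fit both were called (edgeR FDR = 0.0449 and 0.0719), and Mal also with DESeq2 (FDR = 0.0703).

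**Figure D4:**
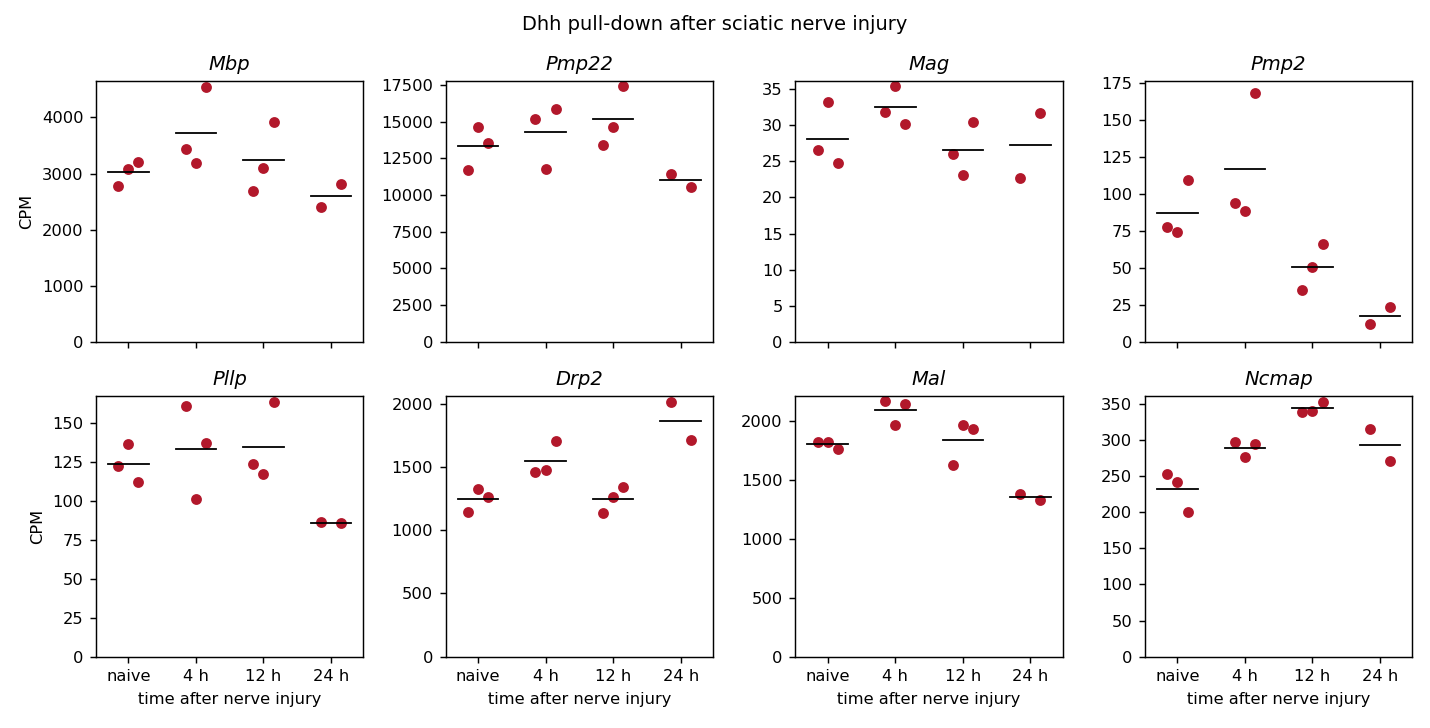
CPM of the 8 genes in each Dhh pull-down library of the injury series, naive and 4, 12 and 24 h after sciatic nerve injury, with a bar at the group mean. Pmp2 goes from 74.1 to 110 CPM in naive ganglia to 11.9 and 23.6 CPM at 24 h, while Drp2 goes from 1147 to 1322 CPM up to 2015 and 1711 CPM.

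Markers of other cells in the same pull-down were checked beside these values. The 8 satellite glia markers summed to 8618 to 10974 CPM in naive libraries, 11509 to 12999 CPM at 4 h, 6319 to 7817 CPM at 12 h and 8361 to 9108 CPM at 24 h, so they were higher at 4 h and lower at 12 h without overlap. The 8 other myelinating Schwann cell markers summed to 7761 to 8906 CPM in naive libraries, and their sums at 4, 12 and 24 h (8127 and 8332 CPM at 24 h) overlapped that range. These sums again leave out S100b, a listed marker that was called lower at 24 h in this pull-down, as given below. The overlap at 24 h is therefore stated only for the list without S100b. The part of the markers in the changes of the 8 genes was not tested.

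Some regulators of myelination had larger changes than any of the 8 genes. Jun, which drives the repair state of Schwann cells, rose in the Dhh IP by a log2 value of 3.03 ± 0.29 at 4 h (edgeR FDR = 4.4e-05) and 2.89 ± 0.29 at 12 h (7.6e-06), and the immediate early gene Egr1 by 6.26 ± 0.69 and 4.42 ± 0.63. Those 2 were the negative regulators and repair genes called at 4 h, of 8 tested (0.527% of all genes were higher). The other genes of that list are not described at 12 h, where 17.3% of all genes were higher and 15.6% lower. Of 14 activators tested none was called at 4 h or 24 h, and 4 rose and 4 fell at 12 h, among them Wwtr1 (1.07 ± 0.12) and Pou3f2 (-1.53 ± 0.20). Of 16 genes tested in the list of other structural myelin proteins 3 rose at 12 h, a share near that of all genes, with Cryab at 0.83 ± 0.18. At 24 h 1 gene of that list fell (1.45% of all genes), S100b by 0.66 ± 0.13 on the log2 scale. S100b is the marker left out of the Schwann cell sums, and it had more CPM in the naive Runx3 IP than in the naive Dhh IP. In the lipid synthesis list 4 of 11 fell at 12 h, with Aspa at -1.17 ± 0.18 and Gal3st1 at -0.94 ± 0.26, and in the Drp2, periaxin and dystroglycan list 3 of 13 fell at 24 h, with Sgcd at -0.81 ± 0.16.

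In the input of the Isl1 line, which is the whole ganglion, several of the 8 genes were lower after injury. Mbp had 815, 755 and 806 CPM in naive ganglia, 664 and 715 CPM at 4 h, 630 and 511 CPM at 12 h and 485 and 593 CPM at 24 h. Every library after injury was below every naive one. Pmp2 had 10.1, 11.0 and 16.8 CPM in naive ganglia, 6.70 and 10.9 CPM at 4 h, 4.00 and 2.64 CPM at 12 h and 2.52 and 5.38 CPM at 24 h. Its libraries at 12 and 24 h lay below all naive ones, as they did in the Dhh IP.

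None of the 8 genes was called in input at 4 h (1.28% of 12238 genes were). At 12 h 3 were lower, where 2.26% of all genes were, namely Pmp2 at a log2 change of -1.88 ± 0.34 (edgeR FDR = 0.0259), Mag at -0.79 ± 0.22 (0.0945) and Mbp at -0.42 ± 0.09 (0.0525). The Mag call was lost without any of the 5 libraries (-0.65 to -0.94, edgeR FDR from 0.158 to 0.490), that of Mbp without 12 h replicate 3 (-0.29, edgeR FDR = 0.414) or any naive library (-0.41 to -0.46, edgeR FDR from 0.104 to 0.170), and that of Pmp2 without 12 h replicate 3 (-1.61, edgeR FDR = 0.323). At 24 h 4 were lower, where 2.75% of all genes were: Mbp by 0.52 ± 0.09 on the log2 scale (edgeR FDR = 0.00942), Pmp2 by 1.65 ± 0.34 (0.0172), Pllp by 0.56 ± 0.14 (0.0502) and Mal by 0.44 ± 0.12 (0.0688). Mbp and Pmp2 held without any single library. Pllp and Mal were lost without 24 h replicate 2 (-0.37 and -0.24) or naive replicate 3 (-0.53 and -0.35), and also without naive replicate 1 (Pllp) or 2 (Mal). Mag, at -0.56 ± 0.22 (edgeR FDR = 0.178), was called at 24 h without replicate 3 of that time (-1.06, edgeR FDR = 0.00438) and with DESeq2 (FDR = 0.0977).

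Pmp22, Drp2 and Ncmap were not called in input at any time, with log2 changes between -0.41 ± 0.13 and 0.07 ± 0.10. The lowest of these, Drp2 at 12 h (edgeR FDR = 0.136), was called with DESeq2 (FDR = 0.0256), with only the compared groups in the fit (edgeR FDR = 0.0458) and without 12 h replicate 2 (-0.63, edgeR FDR = 0.0838). DESeq2 and the fit of the compared groups also called Pllp (FDR = 0.0786 and 0.0626) and Mal (0.0919 and 0.0545) at 12 h, and the latter fit called Ncmap at 4 h (-0.33, edgeR FDR = 0.0708). The median log2 change of the 8 genes in input was -0.18 at 4 h, -0.41 at 12 h and -0.48 at 24 h, against medians of all genes between 5.4e-05 and 0.0081. Ugt8a, which makes the galactolipids of myelin, fell by 1.26 ± 0.28 on the log2 scale at 12 h and by 0.87 ± 0.27 at 24 h. It belongs to the lipid synthesis list, whose other genes are not described in input here. Of the 17 other structural proteins tested 2 were lower at 12 h, Cmtm5 (-0.99 ± 0.20) and Prx (-0.68 ± 0.18), 1 was lower at 24 h, Gjc3 (-0.61 ± 0.18), and none was higher. Of all genes 2.26% and 2.75% were lower at these times, and 2.22% and 5.67% higher. Jun, from the list of negative regulators and repair genes, rose by 1.56 ± 0.13 at 24 h. The rest of that list is not described in input here. The 8 other Schwann cell markers, again without S100b, summed to 859 to 945 CPM in naive input, 822 and 655 CPM at 12 h and 687 and 868 CPM at 24 h. In the same groups the 8 satellite glia markers summed to 1219 to 1304, 1024 and 1038, and 1064 and 1385 CPM. The part of these glial markers in the change of the 8 genes was not tested.

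In the Isl1 IP, where 6 of the 8 genes are listed, levels after injury stayed near those of its naive libraries. None was called at 4 h (3.05% of 11301 genes were) or at 24 h (18.5%), and 1 was higher at 12 h (2.28%). This was Ncmap, with 1.63, 1.06 and 1.30 CPM in naive ganglia and 1.89, 2.32 and 9.40 CPM at 12 h, a log2 change of 1.78 ± 0.48 (edgeR FDR = 0.0709). The change rests largely on replicate 3, the library with more satellite glia and fibroblast markers and with 190 CPM of the 5 other Schwann cell markers listed there (99.6 and 95.2 CPM in the others), in which Mbp (155 CPM against 62.9 and 60.4), Pllp (7.13 against 3.18 and 2.91) and Mal (35.4 against 18.5 and 18.4) were also the highest. Without it the log2 change was 0.70 (edgeR FDR = 0.132), and without any of the naive libraries it was 1.64 to 1.95 (edgeR FDR from 0.190 to 0.218). The part of other cells in the change was not tested.

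Pmp22 in the Isl1 IP ran from 654 to 873 CPM over the 12 libraries, with log2 changes of -0.02 ± 0.07, 0.13 ± 0.07 and -0.03 ± 0.07 at 4, 12 and 24 h, and Drp2 from 21.5 to 28.7 CPM with changes of 0.05 ± 0.10, -0.06 ± 0.10 and -0.14 ± 0.10. In both genes the libraries of naive and injured ganglia overlapped at 4 and 12 h. The median log2 change of the 6 genes was 0.0094 at 4 h, 0.45 at 12 h (0.02 without replicate 3) and -0.0350 at 24 h, beside medians of all genes of 0.0002, 0.0005 and -0.0057. Without that replicate Mbp changed by -0.05 at 12 h in place of 0.52, Pllp by 0.03 in place of 0.55 and Mal by 0.0094 in place of 0.38. In the same pull-down Jun rose by 0.57 ± 0.12 at 12 h and 1.67 ± 0.12 at 24 h on the log2 scale. The rest of its list is not described there.

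**Figure D5:**
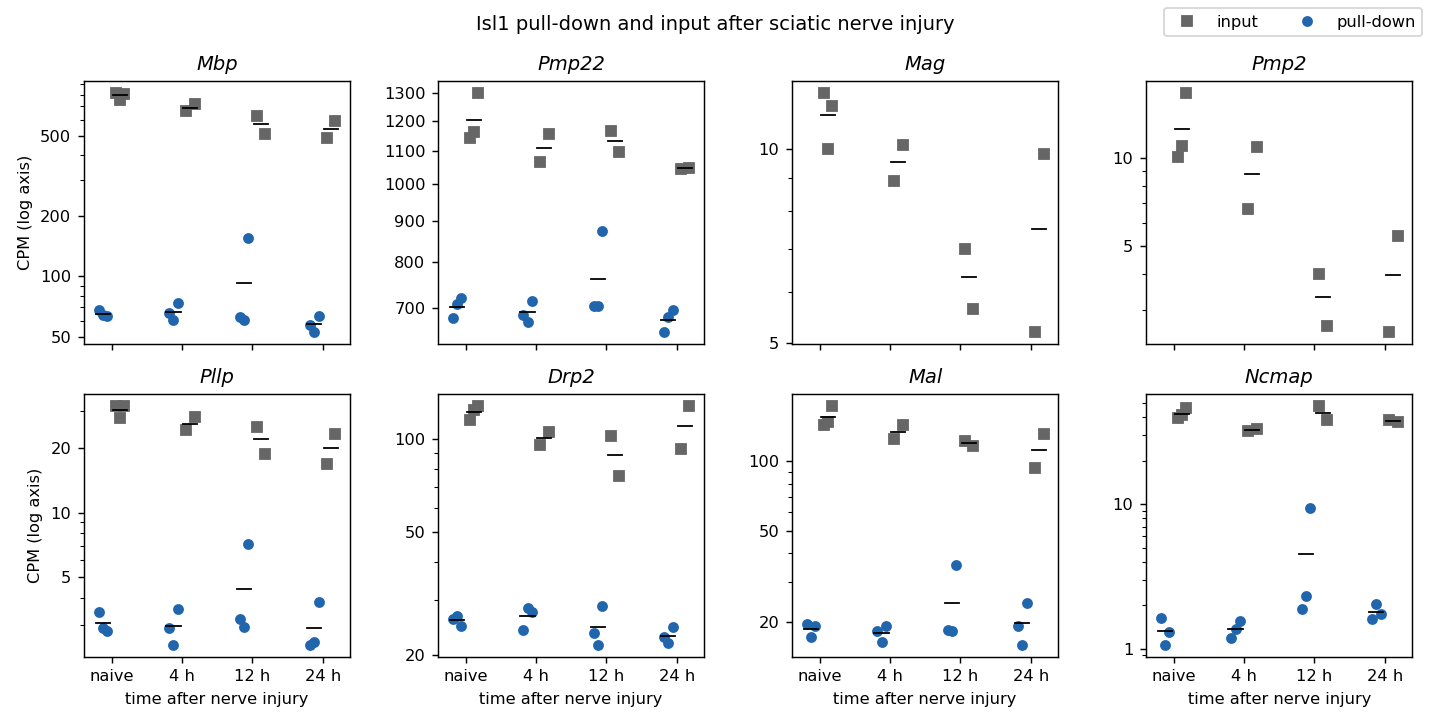
CPM (log axis) of the 8 genes in each Isl1 input (squares) and Isl1 pull-down (circles) library of the injury series, with a bar at the group mean. Mag and Pmp2 are not listed in the pull-down table, Mbp in input goes from 755 to 815 CPM in naive ganglia to 485 and 593 CPM at 24 h, and the high pull-down points at 12 h belong to replicate 3.

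Whether the responses differed between pull-downs was tested with interaction terms. Between the Isl1 and Dhh IPs none of the 6 genes differed at 4 h (0.916% of 9934 genes did) or 12 h (25.7%), and 1 did at 24 h, where 1.13% of all genes had a lower response in the Isl1 IP. This was Drp2, whose response in the Isl1 IP was below that in the Dhh IP by a log2 value of 0.73 (-0.73 ± 0.17, edgeR FDR = 0.0309). Drp2 lay at 22.8, 21.8 and 24.5 CPM in the 24 h Isl1 IP and at 26.2, 26.8 and 24.8 CPM in its naive libraries, while the Dhh IP rose as given above. Without Dhh replicate 1 at 24 h the difference was -0.61 (edgeR FDR = 0.104). At 12 h Ncmap differed by 1.04 ± 0.49 (edgeR FDR = 0.15), and by 1.40 (edgeR FDR = 0.0288) and 1.35 (edgeR FDR = 0.0512) without replicate 1 or 2 of the Isl1 IP at 12 h. Without replicate 3, the library that stood apart, the difference was -0.05 (edgeR FDR = 0.915), and the median over the 6 genes was -0.30 in place of 0.21.

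Between the Isl1 IP and its input no response of the 6 genes differed at 4 h (0.0265% of 11312 genes did), 12 h (0.0177%) or 24 h (0%, with 359 genes at an unadjusted p under 0.05 and 4 called by DESeq2). With the replicate number as a block, which pairs these libraries, the counts over all genes were 46, 45 and 15 in place of 3, 2 and 0, again with none of the 6. The differences of Mbp, the gene with the clearest fall in input, were 0.20 ± 0.34, 0.98 ± 0.34 and 0.38 ± 0.34 at 4, 12 and 24 h, and without Isl1 IP replicate 3 that at 12 h was 0.40 (edgeR FDR = 0.996). A fall of Mbp in input alone was therefore not shown.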

How the data were processed

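Total RNA and ribosome-bound RNA of mouse dorsal root ganglia were sequenced in 77 labelled samples of 27 groups, of which 76 libraries were analysed (replicate 2 of the naive Dhh IP was not). According to the paper's methods, libraries were depleted of ribosomal RNA and amplified as cDNA, STAR placed the reads on mm10, and HTSeq counted those mapping to 1 place over RefSeq genes. CASAVA 1.8.2, edgeR and the builds mm9 and mm10 are named in the submitters' processing notes. The authors deposited raw counts per gene in 6 tables, and beside them a normalized signal, the count scaled by 1 factor per library, that the authors deposited and that served here only for their effective library sizes. All count columns were matched to 1 sample each (0 unmatched). Amplification can bias levels between genes, and genes that a table does not list have no test in it.

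Counts were tested in R 4.3.3 with edgeR 4.0.16 (TMM, glmQLFit, glmQLFTest), with 1 model for all groups of a table and joint models over genes shared by both tables for IP against input, supernatant against input and the interactions. Genes with a mean FPKM above 1 entered, p-values were adjusted over all of them by the Benjamini-Hochberg method, and FDR under 0.1 was called, as the study did. The SE is the log2 difference over the square root of F. FPKM used the RefSeq-matched, or else the longest, GENCODE M21 transcript. Alternatives were DESeq2 1.42.0 as test or for size factors, no FPKM filter, the authors' library sizes, only the compared groups, the replicate number as a block, and leaving out each library, which was added for the percentages of the Dhh level after the data were seen. The models were tested on simulated data first. Likeness used log2(CPM + 0.5).

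The 8 genes and the lists were chosen with earlier results of these data known. Named beside them are the 2 genes of each list with the smallest p, the 5 genes most like their mean, and tagged and driver genes. 1 gene of the lists is not reported here and was left out of their counts, medians and sums. The lists held other structural myelin proteins, the Drp2, periaxin and dystroglycan complex, activators and negative regulators of myelination, lipid synthesis, and markers of neurons, glia, fibroblasts, mural, endothelial, red and immune cells. Same-numbered samples deviated together (every r over 0.1) in IP and input of the Isl1 (0.381 to 0.759) and PGK lines (0.274 to 0.843), in supernatant and input of the Isl1 (0.534 to 0.780), Dhh (0.705 to 0.899) and PGK lines (0.273 to 0.818), and in IP and input of the injured Isl1 line (9 of 9 pairs, 0.230 to 0.713). There the numbers were taken to pair them. Duplicate libraries were looked for and not found (71 pairs within groups, chi-square per gene 5.50 to 266).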

Additional observations from a re-analysis of the deposited data

Results flagged for a closer look

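The response of Drp2 at 24 h differed between the Isl1 and Dhh pull-downs, as the interaction term of line and time showed (a log2 difference of -0.73 ± 0.17, edgeR FDR = 0.0309, from 2 Dhh libraries at 24 h). Its log2 change was 0.56 ± 0.14 in the Dhh pull-down and -0.14 ± 0.10 in the Isl1 pull-down, with both 24 h Dhh libraries above and all 3 Isl1 libraries below their naive ones. Without Dhh replicate 1 at 24 h it was -0.61 (edgeR FDR = 0.104). With all libraries in the fit no other response of the 6 genes listed in both tables was called at any of the 3 times, but Ncmap at 12 h was called without replicate 1 (1.40, edgeR FDR = 0.0288) or 2 (1.35, edgeR FDR = 0.0512) of the 12 h Isl1 pull-down and was at -0.05 (edgeR FDR = 0.915) without replicate 3.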

How the results depend on the processing

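Over 36 comparisons, with the size factors of DESeq2 all kept their number of the 8 genes called within 1.5 times, and so did all 20 that could be run with the authors' library sizes (single tables only, not the joint models). No direction of a called gene was reversed. The other settings changed these counts. With the DESeq2 test they were 1 between Isl1 and Adv, 6 for the Dhh supernatant, 6 in Isl1 input at 12 h and 1 between strains. Without the FPKM filter it was 1 for the Dhh supernatant. With only the compared groups they were 0 for the Dhh supernatant, 2 and 4 in the Dhh IP at 4 and 24 h, and 1 and 6 in Isl1 input at 4 and 12 h. With the replicate block they were 2 for PGK IP against input, 4, 1 and 6 for the Isl1, Runx3 and Dhh supernatant, and 1 in Isl1 input at 12 h, no other count moved by over 1.5 times, and no other call of the 8 genes changed in the comparisons whose samples are paired. By Spearman's rho 0 of the 5 genes most like the members remained.

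Leaving out single libraries gave 7 to 8 genes for PGK against Isl1 and against Adv, 5 to 6 for Runx3 against Adv, 0 to 3 for the Dhh supernatant, 1 to 4 and 1 to 2 in the Dhh IP at 12 and 24 h, 0 to 1 in the Isl1 IP at 12 h, 0 to 3 and 2 to 5 in Isl1 input at 12 and 24 h, and 0 to 1 for the Isl1 minus Dhh response at 12 h and at 24 h. The other counts stayed as reported. Of single values, 1755 kept their call, 44 lost it and 13 gained one.

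Counts over all genes moved more. Without the FPKM filter they went from 2119 to 3283 (PGK against Isl1), 1596 to 2545 (PGK against Adv), 3213 to 4973 (Isl1 IP against input), 47 to 28 (Isl1 supernatant) and 3 to 0 (strain, and likewise with DESeq2 size factors). With the DESeq2 test they went from 0 to 189 (Isl1 against Adv), for supernatants from 0 to 18 (Adv), 47 to 235 (Isl1), 1 to 65 (Runx3), 452 to 773 (Dhh) and 0 to 1 (PGK), after injury from 126 to 359 and 295 to 505 (Dhh IP at 4 and 24 h), 345 to 615 and 571 to 1080 (Isl1 IP at 4 and 12 h) and 157 to 459 and 548 to 958 (Isl1 input at 4 and 12 h), for Isl1 minus Dhh responses from 91 to 216 and 293 to 490 at 4 and 24 h, for IP minus input responses from 3 to 37, 2 to 17 and 0 to 4, and from 3 to 24 between strains. With only the compared groups they went from 1933 to 331 (PGK IP against input), 47 to 1, 1 to 0 and 452 to 0 (Isl1, Runx3 and Dhh supernatant), 126 to 558 and 295 to 455 (Dhh IP at 4 and 24 h), 345 to 1458, 571 to 1868 and 2095 to 1340 (Isl1 IP), 157 to 686 and 548 to 1500 (Isl1 input at 4 and 12 h), 91 to 320 (Isl1 minus Dhh at 4 h) and 3 to 52 (IP minus input at 4 h). The cause was not tested.

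Where the numbers did not pair samples, the block moved the counts over all genes from 0 to 45 (Adv supernatant), 1 to 733 (Runx3 supernatant), and 157 to 36, 548 to 47 and 1030 to 616 (Isl1 input at 4, 12 and 24 h). There the correlation was over 0.1 in 2 of 15 pairs of Dhh IP times, 9 of 18 of Isl1 IP times and 2 of 12 of Isl1 input times. Of the IP libraries 9 of 14, and of the supernatants 12 of 15, correlated best with the input of their own number. CPM on TMM scale moved 9 of 208 group levels by over 1 SD, at ratios from 0.909 to 1.11. The lowest values, of Pmp2 and Mag in the Isl1 IP, rest on 12 to 35 counts a library.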
